A study of Bos taurus with 16 samples.

Results

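ENSBTAG00000006685, 1 of the 27607 genes listed in each deposited count file, is the Ensembl identifier given for bovine IL10, and it was chosen by that identifier. It was found in all 16 libraries. Neither the files nor the reference table used here pairs Ensembl identifiers with symbols, so the name IL10 could not be checked and values are given by identifier. The libraries came from monocyte-derived macrophages (MDMs), which differentiate in culture from blood monocytes into macrophages, of 4 Holstein animals (1, 20, 3 and 50) and 4 Gir animals (2, 5, 6 and 7), all healthy and in their first year of life. For the breed, the labels read Taurine and Indicine, which the paper equates with Holstein and Gir. After 11 days of differentiation, cells of each animal were kept in medium alone (unstimulated) or were given lipopolysaccharide (LPS) of Escherichia coli at 100 ng/ml, and RNA was taken after 48 hours. This gave 4 groups of 4 libraries, unstimulated Gir, LPS treated Gir, unstimulated Holstein and LPS treated Holstein, with 1 library per animal and stimulus. Replicates are therefore separate animals, but no culture was repeated, and 1 dose and 1 time were sampled.

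IL10 is a secreted cytokine of macrophages and lymphocytes. It binds a receptor made of the IL10RA and IL10RB chains, and signals through the kinases JAK1 and TYK2 to the transcription factor STAT3. In macrophages it is known for holding back inflammatory cytokines such as TNF, IL6 and IL12, and for acting back on the cells that release it. LPS, from the envelope of gram-negative bacteria, is sensed through TLR4 and is a known inducer of IL10 in macrophages, with an amount of transcript that depends on the time since the stimulus. The comparisons ask whether the level of the transcript differed between LPS treated and unstimulated MDMs of the same animal, and whether it differed between the breeds. The study also measured IL10 by RT-qPCR, and those measurements were not analysed here. Since no other identifier could be matched to a symbol, the receptor chains, the signalling genes, the targets of IL10 and the markers of macrophages and of other cell types could not be followed, and the labelled cell type was not checked against its markers.

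Levels are given in CPM, the count on the gene scaled to a total of 1000000 counts on all genes in a library. Library totals lay between 7362247 and 10296054 counts on genes. ENSBTAG00000006685 had between 95 and 329 counts per library, which is a range from 10.6 to 38.6 CPM with a median of 26.4 CPM.

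In unstimulated Gir MDMs, ENSBTAG00000006685 stood at 28.2 CPM in animal 2, 21.3 CPM in animal 5, 27.8 CPM in animal 6 and 27.0 CPM in animal 7 (26.1 ± 3.23 CPM, SD, n = 4). These libraries had 277, 171, 205 and 223 counts on the gene. Animal 5 was the lowest, and the other 3 animals lay close together.

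In LPS treated Gir MDMs, the level of ENSBTAG00000006685 was 19.9 CPM in animal 2, 10.6 CPM in animal 5, 25.9 CPM in animal 6 and 17.8 CPM in animal 7 (18.6 ± 6.30 CPM, SD, n = 4), from 179, 95, 195 and 144 counts. Animal 5 was again the lowest, and it was the lowest of all 16 libraries. The range overlapped that of unstimulated Gir MDMs, since animal 6 lay above the unstimulated library of animal 5.

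In unstimulated Holstein MDMs, the level was 25.0 CPM in animal 1, 31.2 CPM in animal 20, 34.1 CPM in animal 3 and 21.0 CPM in animal 50 (27.8 ± 5.92 CPM, SD, n = 4). The counts on ENSBTAG00000006685 were 219, 273, 277 and 175. The 4 animals spread over both sides of the unstimulated Gir range.

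In LPS treated Holstein MDMs, the level was 26.8 CPM in animal 1, 38.6 CPM in animal 20, 36.8 CPM in animal 3 and 19.5 CPM in animal 50 (30.4 ± 8.93 CPM, SD, n = 4), from 209, 329, 285 and 201 counts. Animals 20 and 3 held the 2 highest levels of ENSBTAG00000006685 among all libraries, and animal 50 was the lowest Holstein animal with either stimulus. Holstein animal 50 lay under Gir animals 2 and 6 with LPS, so the LPS treated groups overlapped too.

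**Figure D1:**
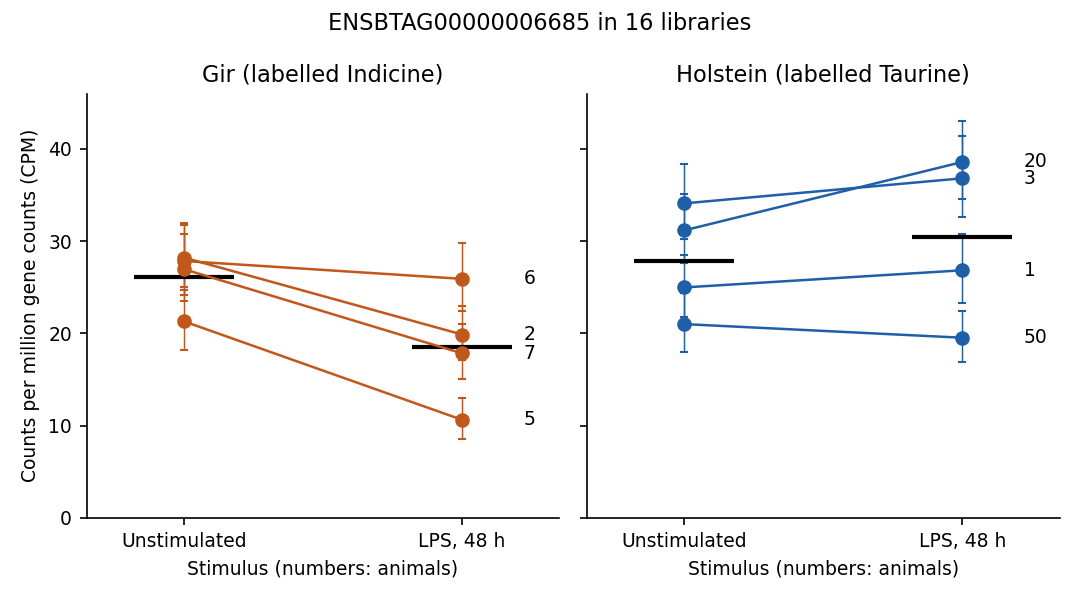
Level of ENSBTAG00000006685 in CPM (vertical axis, from 0) in the unstimulated and LPS treated library of each animal, Gir on the left and Holstein on the right. Lines join the libraries of 1 animal, thin bars are 95% exact Poisson intervals of the counts and thick black lines are group means (26.1 and 18.6 CPM in Gir, 27.8 and 30.4 CPM in Holstein); the 4 Gir lines go down and 3 of the 4 Holstein lines go up.

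In the order of their means, LPS treated Gir MDMs were lowest, followed by unstimulated Gir, unstimulated Holstein and LPS treated Holstein MDMs. All neighbours in this order overlapped. The coefficient of variation of the CPM was 12.4% in unstimulated Gir, 34.0% in LPS treated Gir, 21.3% in unstimulated Holstein and 29.3% in LPS treated Holstein MDMs, and the part that counting error alone gives is 6.80%, 8.10%, 6.51% and 6.28%. In the fit over all 16 libraries the biological coefficient of variation, a measure of how far animals differ after counting error is taken out, was 0.283 for ENSBTAG00000006685 and 0.280 for the median of 12968 genes. By this value 50.9% of genes were lower. edgeR draws the value of each gene toward that of genes of like level, so the closeness to the median is in part given by the method. An animal tended to stand on the same side of its group with and without LPS. Holstein animals 20 and 3 and Gir animal 6 were above their group mean of log2 CPM with either stimulus. Holstein animals 1 and 50 and Gir animal 5 were below it with either. Gir animal 2 was only 0.01 above it without LPS and 0.09 above it with LPS, and Gir animal 7 was 0.03 above and 0.03 below.

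The change with LPS was then followed within each animal. In Gir MDMs, the ratio of the LPS treated to the unstimulated CPM of ENSBTAG00000006685 was 0.704 in animal 2 (95% exact counting interval 0.580 to 0.853), 0.499 in animal 5 (0.384 to 0.645), 0.930 in animal 6 (0.761 to 1.14) and 0.661 in animal 7 (0.533 to 0.819). In Holstein MDMs, the ratio was 1.07 in animal 1 (0.885 to 1.30), 1.24 in animal 20 (1.05 to 1.46), 1.08 in animal 3 (0.912 to 1.28) and 0.930 in animal 50 (0.755 to 1.14). Counting error alone left 1 inside the interval of Gir animal 6 and of Holstein animals 1, 3 and 50. These intervals cover counting error only, not the spread between cultures.

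The direction in 2 animals depended on how libraries were scaled. TMM scaling corrects each library size for the composition of its RNA, and its factors were lower in the LPS treated than in the unstimulated library of all 8 animals. The share of counts held by the 100 most counted genes was higher with LPS (41.1% against 36.8% in Gir and 39.2% against 33.6% in Holstein, group means). With TMM scaling, the log2 difference of ENSBTAG00000006685 between LPS treated and unstimulated MDMs was -0.32 in Gir animal 2, -0.87 in animal 5, 0.06 in animal 6 and -0.46 in animal 7. The corresponding differences were 0.21 in Holstein animal 1, 0.49 in animal 20, 0.19 in animal 3 and 0.14 in animal 50. The gene was thus lower with LPS in 3 of 4 Gir animals with TMM scaling and in 4 of 4 with library totals, and higher in 4 of 4 Holstein animals with TMM scaling and in 3 of 4 with library totals. Of 12968 genes, 25.6% were lower in every Gir animal with library totals and 12.1% with TMM scaling. Gir animal 6 and Holstein animal 50 changed sign between the scalings. With neither scaling was the gene higher in every Holstein animal and lower in every Gir animal, a pattern of full opposition that 0.640% of 12968 genes showed in either direction with TMM scaling.

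**Figure D2:**
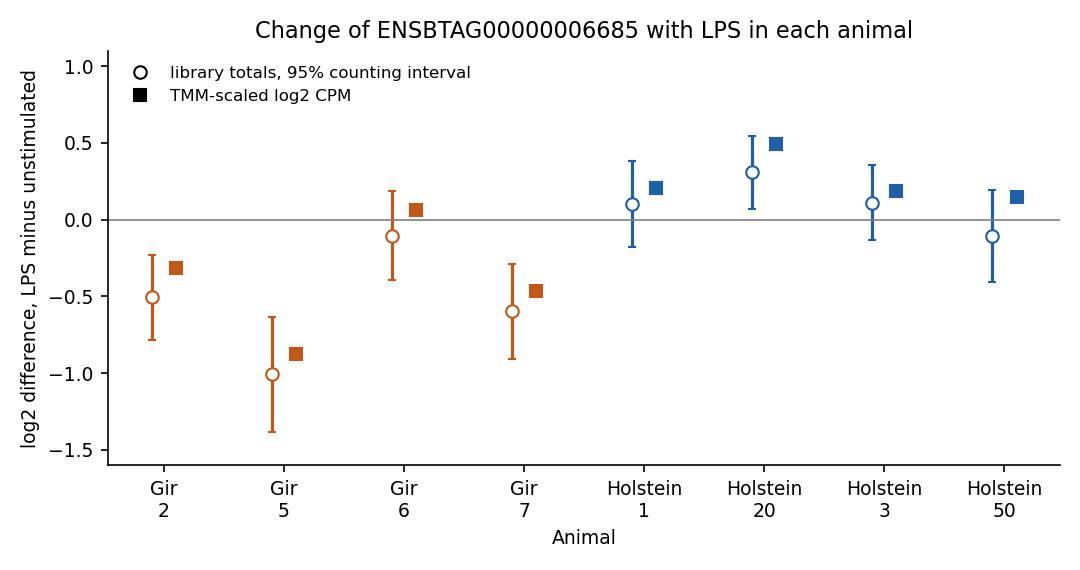
Log2 difference of ENSBTAG00000006685 between the LPS treated and the unstimulated library of each animal (vertical axis; Gir in orange, Holstein in blue). Open circles use library totals with 95% counting intervals, and filled squares use TMM-scaled log2 CPM with a prior count of 2. Every square lies above the circle of its animal. The lowest Holstein square (0.14) lies above the highest Gir square (0.06), a separation in this direction that 1.78% of 12968 genes showed. The circles of the breeds overlap, since that of Holstein animal 50 lies just below that of Gir animal 6.

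In Holstein MDMs, the mean within-animal difference of ENSBTAG00000006685 was 0.26 ± 0.16 on the TMM-scaled log2 scale (SD, n = 4). The exact sign-flip permutation test gave p = 0.125 (two-sided), the smallest that 4 animals allow, and 0.286 after Benjamini-Hochberg adjustment over 6 such tests. Of 12968 genes compared, 14.4% were higher with LPS in every Holstein animal. edgeR's quasi-likelihood test, which compared the 8 libraries without regard to the animal, gave a log2 fold change of 0.32 (standard error 0.26, 95% interval -0.28 to 0.92, adjusted p = 0.907). A gene was called when its false discovery rate was under 0.05 and its absolute log2 fold change at least 1, and 0.00% of 12400 genes were called in this comparison, with 6.78% at an unadjusted p under 0.05 and 162 genes called by DESeq2. With the animal as a block, which sets each LPS treated library against the unstimulated library of the same animal, 3.81% of the genes (472) were called, a number that was 108, 8, 1239 and 164 when animal 1, 20, 3 or 50 was left out. ENSBTAG00000006685 then had a log2 fold change of 0.30 with an interval from 0.06 to 0.54, and was not called (edgeR, unadjusted p = 0.0226, adjusted p = 0.123). In that fit 26.2% of genes had an unadjusted p under 0.05. With library totals in place of TMM the log2 fold change was 0.11 with the block, with an interval that held 0 (-0.14 to 0.35, edgeR's unadjusted p = 0.335), and 0.13 without it, and the median of all genes tested in the fit without the block moved from -0.01 to -0.20. Without animal 20 the log2 fold change of ENSBTAG00000006685 was 0.20 in the fit with TMM and no block. With the block and TMM, its interval held 0 without animal 1 (-0.05 to 0.58) and without animal 20 (-0.08 to 0.48). DESeq2 with the block also gave an interval that held 0 (-0.01 to 0.60). The interval left out 0 without animal 3, without animal 50 and by edgeR's likelihood ratio test (0.05 to 0.56).

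In Gir MDMs, the mean within-animal difference was -0.40 ± 0.39 (SD, n = 4; exact sign-flip permutation test, two-sided, p = 0.250, adjusted over 6 tests 0.375). edgeR's quasi-likelihood test gave ENSBTAG00000006685 a log2 fold change of -0.35 (standard error 0.25, 95% interval -0.90 to 0.21, adjusted p = 0.602). In this comparison 0.00% of 11913 genes were called, with 11.7% at an unadjusted p under 0.05 and 352 genes called by DESeq2. With the animal as a block, 0.218% (26 genes) were called, and leaving out animal 2, 5, 6 or 7 gave 57, 5, 191 or 0. The log2 fold change of ENSBTAG00000006685 was then -0.40 (95% interval -0.82 to 0.01, adjusted p from edgeR 0.327). With library totals it was -0.55 with the block, with an interval that left out 0 (-0.96 to -0.14, edgeR's unadjusted p = 0.0163, adjusted p = 0.159), and -0.50 without it, while the median of all genes tested moved to -0.15. Which breed's interval with the block left out 0 thus depended on the scaling, and neither was called. Single animals moved this value, and in edgeR's fit without the block the log2 fold change was -0.23 without animal 5 and -0.54 without animal 6.

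Over both breeds, the differences of opposite sign left a mean of -0.07 ± 0.44 (SD, n = 8), with ENSBTAG00000006685 higher with LPS in 5 of 8 animals (exact sign-flip permutation test, two-sided, p = 0.688, adjusted over 6 tests 0.825). With library totals it was higher in 3 of 8 animals, with a mean of -0.22. edgeR gave a log2 fold change of -0.03 for LPS treated against unstimulated MDMs (95% interval -0.46 to 0.40, adjusted p = 0.971), and 1.63% of 12968 genes were called, with 18.9% at an unadjusted p under 0.05. The interval leaves out a change of 1 on the log2 scale in either direction. With the animal as a block 5.47% of genes were called and the log2 fold change was -0.06, with 30.8% of genes at an unadjusted p under 0.05 and an adjusted p of 0.813 from edgeR for ENSBTAG00000006685. The sign of the value without the block turned to 0.0187, 0.0719 and 0.0391 without Gir animals 2, 5 and 7.

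**Figure D3:**
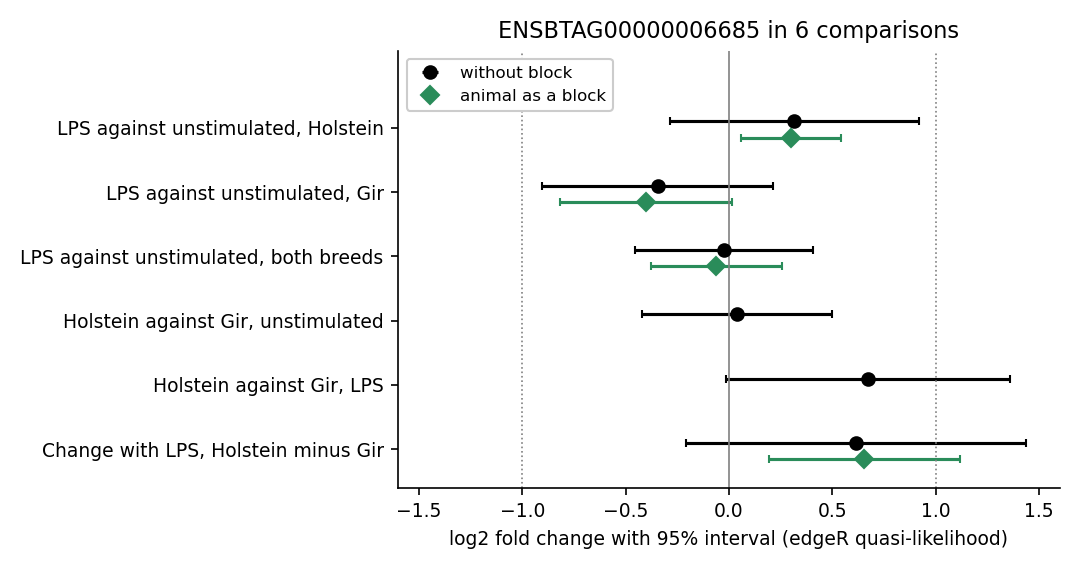
Log2 fold change of ENSBTAG00000006685 with its 95% interval (horizontal axis) in 6 comparisons by edgeR's quasi-likelihood test, without (black circles) and, where stimuli were compared, with the animal as a block (green diamonds). Dotted lines mark an absolute log2 fold change of 1, which no estimate reaches; the estimates lie between -0.40 and 0.67.

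Between unstimulated MDMs of the breeds, the levels of ENSBTAG00000006685 were close. The means of log2 CPM were 4.68 in Holstein and 4.67 in Gir, a difference of 0.01 (exact two-sided permutation test, p = 0.943, 0.943 after adjustment over 6 tests). edgeR's log2 fold change, Holstein relative to Gir, was 0.04 (standard error 0.20, 95% interval -0.42 to 0.50, adjusted p = 0.952), where 0.318% of 12565 genes were called and 11.7% had an unadjusted p under 0.05. The breeds overlapped, and 7.89% of 12968 genes had values that did not. This sign also rested on single animals, since it turned to -0.0436 when Gir animal 5 was left out, to -0.0430 when Holstein animal 20 was, and to -0.0959 when Holstein animal 3 was.

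Between LPS treated MDMs of the breeds, the mean log2 CPM of ENSBTAG00000006685 was 4.94 in Holstein and 4.27 in Gir. The difference of 0.67 did not pass the test (p = 0.143 by exact permutation, two-sided, and 0.286 after adjustment over 6 tests), and the breeds overlapped, whereas 15.7% of 12968 genes had values that did not overlap between the breeds with LPS. By edgeR the log2 fold change was 0.67 (standard error 0.31, 95% interval -0.01 to 1.36), which did not pass the threshold (unadjusted p = 0.0537, adjusted p = 0.247). Whether the interval held 0 depended on the setting. It left out 0 with library totals (0.03 to 1.40), no filter on low counts, edgeR's likelihood ratio test, DESeq2's Wald test and 1 model over 16 libraries (0.07 to 1.24), at unadjusted p between 0.0309 and 0.0485 and adjusted p between 0.169 and 0.267, and held it with DESeq2 size factors and with edgeR's filterByExpr. In this comparison 7.35% of 11986 genes were called and 21.0% had an unadjusted p under 0.05. Leaving out 1 animal at a time moved the log2 fold change between 0.48 and 0.90, and edgeR's adjusted p between 0.120 and 0.433.

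Whether the breeds differed in their change with LPS was tested directly. The mean within-animal difference of ENSBTAG00000006685 was 0.26 in Holstein and -0.40 in Gir, so Holstein exceeded Gir by 0.66 on the log2 scale. With TMM scaling the difference in each of the 4 Holstein animals was above that in each of the 4 Gir animals, which held for 1.78% of 12968 genes (3.91% in either direction). The exact permutation test of the breed labels gave p = 0.0286 (two-sided), the smallest that 4 animals against 4 allow, and 0.171 after adjustment over 6 tests. With library totals the breeds overlapped by a small margin, since Holstein animal 50 had -0.106 and Gir animal 6 had -0.103, and the exact permutation p was 0.0571. With TMM the exact permutation p was also 0.0571 when any 1 of the 4 Holstein animals was left out, with differences from 0.58 to 0.69. It was 0.0286 when any 1 of the 4 Gir animals was left out, with differences from 0.50 to 0.81. In edgeR's fit of 4 groups over 16 libraries the difference was 0.61 (standard error 0.39, 95% interval -0.21 to 1.44, unadjusted p = 0.133, adjusted p = 1.00), and 0.00% of 12968 genes were called, with 1.92% at an unadjusted p under 0.05 and 2 genes called by DESeq2. With the animal as a block the difference was 0.66 (standard error 0.21, 95% interval 0.19 to 1.12, unadjusted p = 0.0102), and it did not pass the threshold over all genes (edgeR's adjusted p = 0.507). In that fit 0.00% of genes were called and 8.28% had an unadjusted p under 0.05.

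Set among all 12968 genes, the mean within-animal difference of ENSBTAG00000006685 was above that of 85.6% of genes in Holstein and above that of 16.5% of genes in Gir. The medians of all genes were -0.05 in Holstein and -0.02 in Gir. For Holstein minus Gir, 93.9% of genes had a lower value than ENSBTAG00000006685. Its differences therefore lay on opposite sides of the median in Holstein and Gir, and at the end of neither distribution. The data are of whole cultures, in which fewer cells with the transcript and less transcript per cell cannot be told apart.

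**Figure D4:**
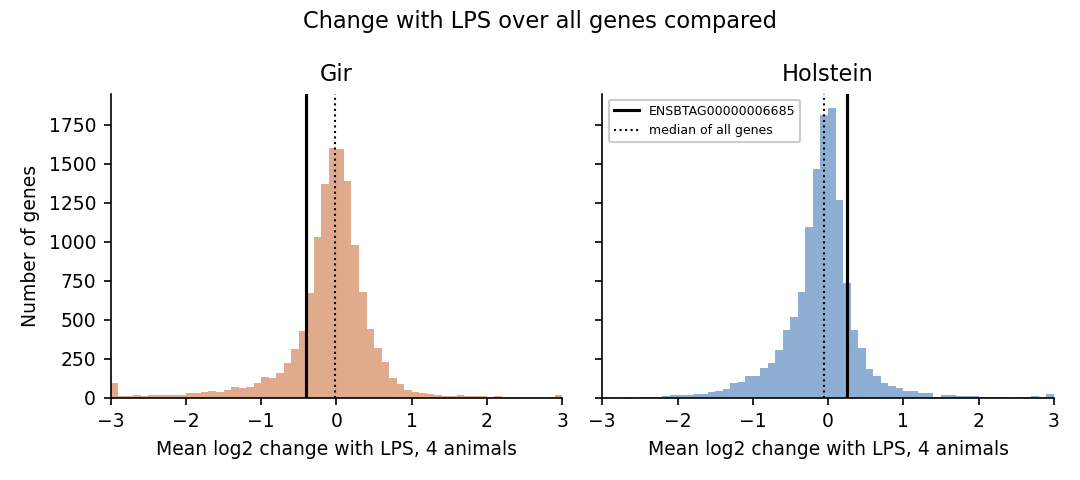
Number of genes (vertical axis) by their mean log2 difference between LPS treated and unstimulated libraries of the same animal (horizontal axis, TMM-scaled, 4 animals, values beyond the ends put in the end bars), Gir on the left and Holstein on the right, for 12968 genes. The solid line marks ENSBTAG00000006685, at -0.40 in Gir and 0.26 in Holstein, and the dotted line the median of all genes.

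Genes whose log2 CPM over the 16 libraries was most like that of ENSBTAG00000006685 were ranked by Pearson's r among 12967 other genes, as a description. The libraries come in pairs from 8 animals and share their scaling, so the 16 points are not independent. ENSBTAG00000007402 stood first with r = 0.895 (Spearman's rho 0.879), at levels from 27.0 to 91.0 CPM. ENSBTAG00000016295 followed with r = 0.887 (rho 0.912), at 14.0 to 27.4 CPM. At the other end were ENSBTAG00000051479 with r = -0.873 (rho -0.879), at 14.0 to 32.7 CPM, and ENSBTAG00000020469 with r = -0.864 (rho -0.853), at 0.235 to 4.36 CPM. No symbol was available for these 4 genes.

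Of the other genes, 52 had r of at least 0.8 with ENSBTAG00000006685, 22 had r of -0.8 or below and 0 reached 0.9, while the median was -0.0023. Ranking by the 8 within-animal differences in place of the levels kept only 12 of the 100 genes of highest r. ENSBTAG00000016295 kept a correlation of 0.902 over these differences and stood at place 19, whereas ENSBTAG00000007402 had 0.757 and stood at place 345.

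**Figure D5:**
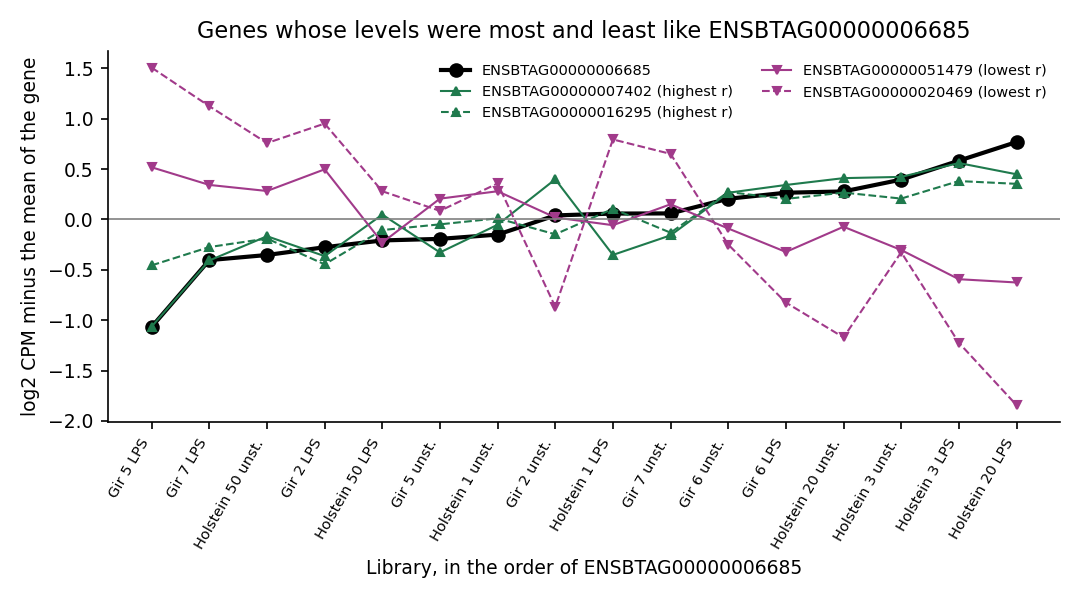
Log2 CPM minus the mean of each gene (vertical axis) in 16 libraries, ordered along the horizontal axis by the level of ENSBTAG00000006685 (black). Green upward triangles are the genes with the highest r (0.895 and 0.887) and purple downward triangles those with the lowest (-0.873 and -0.864); the green lines rise with the black one and the purple lines go down, with single libraries off the order.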

How the data were processed

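RNA of MDMs from 8 animals was sequenced as 16 stranded mRNA libraries with 100 bp paired-end reads. The authors aligned reads with STAR 2.6.0c, kept those with 1 place in the genome, and deposited the HTSeq-count 0.10.0 counts without normalization. The paper names the build ARS-UCD1.2 and the labels UMD3.1, and whether strand was used in counting is not given in the sources used here. The 5 counters of reads given to no gene were left out of library sizes. The reference table (ARS-UCD2.0, 37063 genes) matched 0 of 27607 identifiers, so the lists of other genes and of cell type markers, coordinates and sequences were not analysed here.

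Counts were fitted with edgeR 4.0.16 in R 4.3.3 (TMM, glmQLFit and glmQLFTest, Benjamini-Hochberg over all genes tested), keeping genes of at least 1 CPM in at least 4 libraries. Each contrast of 2 groups used its own 8 libraries, and the pooled comparison (with breed as a term) and the difference in change used 16. Single values were compared by exact permutation of TMM-scaled log2 CPM (prior count 2) with scipy 1.17.1. The standard error was obtained from the log2 fold change and the root of its F statistic. Alternatives were other scalings, filters, tests (DESeq2 1.42.0), a prior count of 0.5, the animal as a block and leaving out each animal. Combinations with the block were added after seeing the data. Only edgeR's quasi-likelihood and likelihood ratio fits of some comparisons were run on simulated counts. The planted log2 changes were 2 in either direction, larger than any estimate for this gene. The fits by DESeq2, with other scalings and with an animal left out were not tested in this way. Labels give both stimuli of an animal its number, and deviations of same-numbered libraries from their group means correlated between 0.645 and 0.822 in Holstein but only between 0.0542 and 0.303 in Gir, where animal 2 was closer to another number (0.241). The pairing rests on the labels. No library repeated another. The gene, the lists and the rule for naming genes (this gene, and the 2 genes at each end by r) were chosen with earlier results of these data known.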

Additional observations from a re-analysis of the deposited data

Results flagged for a closer look

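The within-animal change of ENSBTAG00000006685 with LPS differed between the breeds in the exact permutation test of the breed labels before adjustment. Holstein exceeded Gir by 0.66 on the log2 scale (exact p = 0.0286, 0.171 after adjustment over 6 tests). With library totals in place of TMM the difference was 0.65 with an exact permutation p of 0.0571. With TMM the exact permutation p was 0.0571 when any 1 of the 4 Holstein animals was left out, with differences from 0.58 to 0.69. It stayed at 0.0286 when any 1 of the 4 Gir animals was left out, with differences from 0.50 to 0.81.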

How the results depend on the processing

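ENSBTAG00000006685 passed the threshold in none of the 6 comparisons, and in none of 120 alternative fits, of which 113 kept the direction and 7 reversed it. Of 52 alternatives of the exact permutation tests, 48 kept the direction and 4 reversed it, and none passed after adjustment. The exact tests within 1 breed could not pass, since their smallest p is 0.125 with 4 animals and 0.25 with 3. For the exact tests between breeds the smallest p is 0.0286, which in the main setting became 0.171 after adjustment. That none passed is therefore no measure of whether the level changed. All reversals came from leaving out an animal, which gave -0.10 to 0.16 for Holstein against Gir in unstimulated MDMs (exact tests -0.10 to 0.15) and -0.110 to 0.0719 for LPS over both breeds (exact tests -0.15 to 0.0446, with the block -0.143 to 0.0510, reversed without Gir animal 5). Leaving out an animal gave 0.20 to 0.38 for LPS in Holstein, -0.54 to -0.23 in Gir and 0.50 to 0.85 for the difference between the breeds in the change with LPS. The block changed no call for this gene (for example 0.30 in Holstein), and over all alternatives the adjusted p lay between 0.0781 and 1.00 for LPS in Holstein, 0.139 and 0.999 in Gir, 0.858 and 0.983 between unstimulated MDMs, 0.120 and 0.433 between LPS treated MDMs, 0.268 and 0.998 over both breeds, and 0.190 and 1.00 for the difference in change, where DESeq2 with the block gave no adjusted p.

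The number of all genes called depended on the test and on single animals. With the block and the quasi-likelihood test, 472 genes were called in Holstein, 26 in Gir and 709 over both breeds, against 0, 0 and 211 without it. DESeq2 called 162, 352 and 691 in these comparisons, 333 between unstimulated MDMs against 40, and 1412 between LPS treated MDMs against 881. With the block, edgeR's likelihood ratio test gave 798, 352 and 818 calls, and 114 for the difference in change against 0. Leaving out an animal gave 12 to 49 between unstimulated MDMs and 77 to 383 over both breeds, and 0 to 33 in Gir. With the block, it gave 8 (without animal 20) to 1239 (without animal 3) in Holstein, 0 (without animal 7) to 191 (without animal 6) in Gir and 442 (without Holstein animal 50) to 933 (without Holstein animal 3) over both breeds. Between 95 and 329 counts per library limit the precision of a single ratio, and 4 animals a breed limit the smallest exact p.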
